A study of Mus musculus with 9 samples.

Results

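The 40 genes described here encode the machinery that brings proteins into the endoplasmic reticulum (ER), folds them there, removes those that fail to fold, and senses the load. They were matched by symbol to the array annotation, and each was read from the brightest of its probe sets that name a single gene. All 40 were found and all 40 were among the 13644 genes tested, of 18193 genes with such a probe set. By role they comprised 19 chaperones and foldases, 9 genes of ER-associated degradation, 8 of the translocon and signal peptidase, and 4 stress sensors and their effector. RNA came from pancreatic islets of 8-week-old male mice and was measured on 9 Affymetrix Mouse Genome 430 2.0 arrays. The KO group (4 arrays) was βRapKO, in which floxed *Raptor* alleles (gene symbol *Rptor*, the scaffold of the growth-regulating kinase complex mTORC1) were deleted by Cre under a rat insulin promoter. The WT group (5 arrays) consisted of littermates that also carried the floxed alleles but had no Cre, so the Cre transgene differs between the groups together with *Raptor*. The labels give the strain as C57BL/6, while the Cre line had been kept on a mixed background. Each array held RNA pooled from the islets of 5 animals, and the islets also contain cells in which the promoter is not active. The comparison asks how this machinery differs in islets whose beta cells lack mTORC1.

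Insulin and other secreted proteins enter the ER through the Sec61 channel, lose their signal peptide, and fold with the help of chaperones and disulfide isomerases. Proteins that fail are drawn back to the cytosol and degraded. When unfolded protein builds up, the membrane sensors IRE1 (*Ern1*), PERK (*Eif2ak3*) and ATF6 start the unfolded protein response, in which the transcription factors XBP1 and ATF6 raise the transcription of chaperone and degradation genes and PERK slows translation. Beta cells, acinar cells and plasma cells all secrete heavily and are rich in this machinery.

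Of the 40 genes 3 rose in KO islets, *Derl3*, *Creld2* and *Syvn1*, and 1 fell, *Derl2* (limma, adjusted p under 0.05). Thus 7.5% of them were called higher, against 3.67% of all tested genes, and 2.5% were called lower, against 2.63%. With so few calls these shares are close to the background, and the count depended on the setting. With trend and robust variance 9 of the 40 were called higher (22.5%, against 5.34% of all genes). Only *Derl3* was called with no filter on dim genes, with each array centred on its median or with the mean of a gene's probe sets (against 1.31%, 1.57% and 1.34% of all genes called higher). With the replicate number as a block or the stromal marker mean as a covariate 0 of the 40 were called (against 0.242% and 0.022%). The direction was less even: the KO mean was above the WT mean in 34 of the 40 genes (85%), against 56.2% of all genes. Every KO array lay above every WT array in 9 of the 40 genes (22.5%, against 7.43% of all genes), and every KO array lay below in 1 (2.5%, against 5.05%). At an unadjusted p under 0.05, 14 genes were higher (35%, against 13.3%) and 1 was lower (against 8.43%). These 14 became 9 with each array centred on its median, 7 with the mean of a gene's probe sets and 6 with the stromal marker mean as a covariate. The 34 genes with a higher KO mean became 26 under that covariate and 30 with the mean of probe sets. Further probe sets, 54 in number, were present for 28 of the 40 genes, and 30 of the 54 had the sign of the one used. At an unadjusted p under 0.05, 1 had that sign and 2 the opposite one. In a fit over all 34945 probe sets *Derl3* was called (limma adjusted p = 0.0156), but *Creld2*, *Syvn1* and *Derl2* were not. The median difference was 0.15 on the log2 scale, against 0.04 over all genes, so most of these differences were small. The shares over all genes were not matched for brightness. The 40 genes averaged 12.42 to 12.73 per array, against array medians of 6.85 to 7.05, and what this does to the shares was not tested. In RNA from whole islets, fewer cells of a type and less RNA per cell cannot be told apart.

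**Figure D1:**
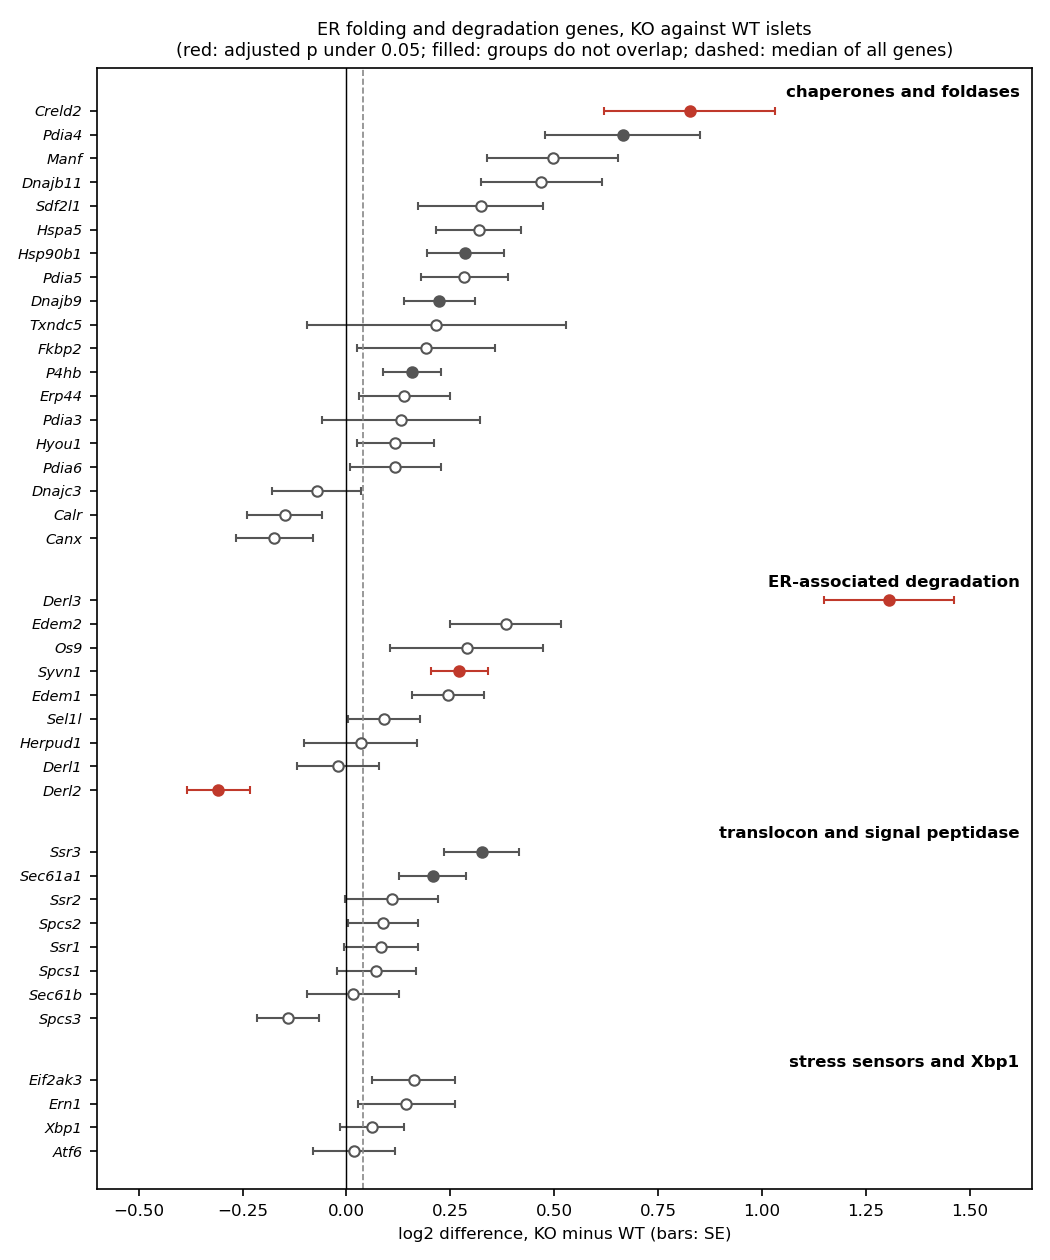
Log2 difference, KO minus WT, of each of the 40 genes with its SE (5 WT and 4 KO arrays), grouped by role. Red marks an adjusted p under 0.05 (limma), filled points mark genes whose groups do not overlap, and the dashed line is the median of all genes at 0.04. *Derl3* at 1.31 and *Creld2* at 0.83 stand far to the right of most genes, and *Derl2* at -0.31 is the red point to the left.

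XBP1 and ATF6 are known to act through the ER stress response element (ERSE), so its letters were searched in the promoters. RefSeq promoters (GRCm38.p6, from 250 bases before to 50 after the transcription start) were available for 33 of the 40 genes. The motif was taken as the letters CCAAT, any 9 bases and CCACG, on either strand. They occurred in 37 of 27025 genes (0.137%) and in 9 of the 33. The 40 genes were chosen by their role in this machinery, so these shares describe the list and do not bear on KO against WT. The matches are shown because they include the 3 genes that rose and also the 3 chaperones with the lowest differences by the probe sets used. Capitals mark the fixed letters of the motif, and each match is written 5′ to 3′ on the strand on which it reads in this order:
Derl3: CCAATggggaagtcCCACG
Creld2: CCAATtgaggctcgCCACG
Hspa5: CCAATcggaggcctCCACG
Hsp90b1, farther from the start: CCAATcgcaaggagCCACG
Hsp90b1, nearer to the start: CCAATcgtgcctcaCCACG
Syvn1: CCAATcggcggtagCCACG
Pdia6: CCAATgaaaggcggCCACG
Dnajc3: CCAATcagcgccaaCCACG
Calr: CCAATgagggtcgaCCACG
Canx: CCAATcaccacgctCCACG

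The letters lay on the strand of the gene except in *Derl3*, *Creld2*, *Calr* and the nearer match of *Hsp90b1*. Counting the base just before the start as -1, the match ended nearest to it at -138 in *Derl3*, -108 in *Creld2*, -47 in *Hspa5*, -26 in *Syvn1* and -144 in *Calr*. The 250 bases upstream of the start are printed for *Derl3* and *Creld2*, which differed most, for *Hspa5*, which encodes the main ER chaperone BiP, and for *Calr*, which has the same letters and a lower KO mean. They are given on the strand of the gene with the ERSE letters in capitals, so that a match on the opposite strand appears as CGTGG followed by ATTGG:
Derl3, chr10:75893148-75893397, + strand: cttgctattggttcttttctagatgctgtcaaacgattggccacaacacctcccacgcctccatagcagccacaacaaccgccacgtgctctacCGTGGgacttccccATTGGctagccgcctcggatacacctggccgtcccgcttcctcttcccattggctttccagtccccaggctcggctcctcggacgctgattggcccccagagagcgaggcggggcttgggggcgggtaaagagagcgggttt
Creld2, chr15:88819396-88819645, + strand: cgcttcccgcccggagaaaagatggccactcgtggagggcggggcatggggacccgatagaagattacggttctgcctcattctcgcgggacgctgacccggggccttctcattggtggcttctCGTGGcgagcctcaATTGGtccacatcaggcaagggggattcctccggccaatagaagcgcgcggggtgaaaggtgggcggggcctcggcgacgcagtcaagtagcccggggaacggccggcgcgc
Hspa5, chr2:34771840-34772089, + strand: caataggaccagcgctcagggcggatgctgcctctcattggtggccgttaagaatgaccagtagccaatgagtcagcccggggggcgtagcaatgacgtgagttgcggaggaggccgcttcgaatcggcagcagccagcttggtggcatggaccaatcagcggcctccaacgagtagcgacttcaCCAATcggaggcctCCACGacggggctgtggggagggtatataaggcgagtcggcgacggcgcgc
Calr, chr8:84846932-84847181, - strand: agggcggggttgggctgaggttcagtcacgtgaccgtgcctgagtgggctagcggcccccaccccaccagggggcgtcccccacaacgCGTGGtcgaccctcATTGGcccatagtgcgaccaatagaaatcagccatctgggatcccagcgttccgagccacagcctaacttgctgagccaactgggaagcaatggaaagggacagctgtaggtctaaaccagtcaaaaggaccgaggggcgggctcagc

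The 9 genes with the ERSE letters spanned almost the whole range of the 40. Their differences ran from -0.17 (*Canx*) to 1.31 (*Derl3*) with a median of 0.27, and the other 24 genes with a promoter had a median of 0.16. Outside the 40, 5 tested genes held the letters (*Adcy3*, *Alg12*, *Ero1b*, *Pan2* and *Spats2l*), and limma called 0 of these, with a median of 0.08. The shorter ERSE-II motif, ATTGG, any base and CCACG, occurred in 12 genes (0.0444%), among them *Dnajb11* (difference 0.47) and *Herpud1* (0.03). The letters TGACGTGG of the unfolded protein response element occurred in 193 genes (0.714%), among them *Txndc5* (0.22). The letters TGATGNAAT of the element bound by ATF4 and CHOP occurred in 293 genes (1.08%) and in 0 of the 33. A match is a description of letters only, and no binding was measured.

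**Figure D2:**
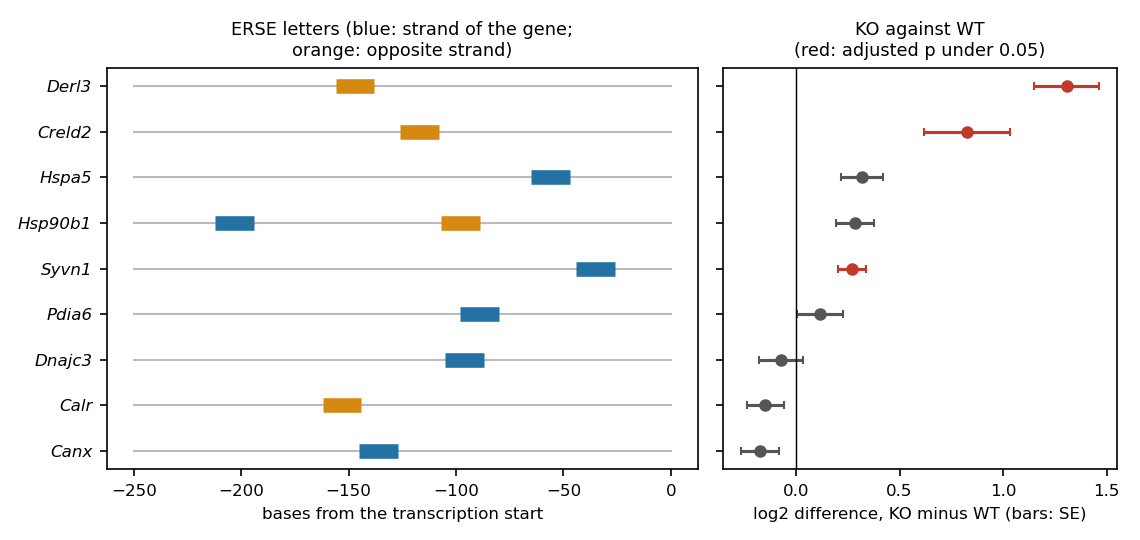
Left, position of the ERSE letters within the 250 bases before the transcription start of the 9 genes that hold them, blue for the strand of the gene and orange for the opposite strand. Right, log2 difference of the same genes, KO minus WT, with its SE and red for an adjusted p under 0.05. The genes run from *Derl3* at 1.31 down to *Canx* at -0.17, and the letters are present in all of them.

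The degradation genes held both the largest rise and the only fall. *Derl3* encodes a derlin, a membrane protein through which misfolded proteins leave the ER, and is known as a target of the unfolded protein response. Its log2 signal was 9.42, 8.82, 9.25, 9.55 and 9.17 on the WT arrays and 10.41, 10.81, 10.52 and 10.46 on the KO arrays. The groups were separated by a wide gap, since the highest WT array read 9.55 and the lowest KO array 10.41. The mean rose from 9.24 ± 0.28 (SD, n = 5) to 10.55 ± 0.18 (SD, n = 4), a difference of 1.31 ± 0.16 (SE), equal to 2.47-fold (limma adjusted p = 0.00282). It was called in 17 of 19 alternative settings, including every setting that left out 1 array. The exceptions were the fit with the replicate number as a block and the fit with the stromal marker mean as a covariate (difference 1.31, limma adjusted p = 0.19).

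*Derl2* encodes the related derlin-2 and went the opposite way. It read 11.80, 11.87, 11.70, 11.78 and 11.70 in WT islets, against 11.51, 11.49, 11.46 and 11.38 in KO islets. All KO arrays lay below all WT arrays, with a difference of -0.31 ± 0.08 (SE), equal to 1.24-fold (limma adjusted p = 0.0481). The other *Derl2* probe set differed by -0.18 ± 0.12 (SE). *Derl1*, the third derlin, differed by -0.02 ± 0.10 with overlapping groups.

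*Syvn1* encodes HRD1, the ubiquitin ligase of the same pathway. It read 11.05, 11.09, 11.07, 11.05 and 11.12 in WT islets, against 11.36, 11.39, 11.33 and 11.32 in KO islets. The arrays of each group lay within a narrow band, and the KO band was the higher one. The difference was 0.27 ± 0.07 (SE), equal to 1.21-fold (limma adjusted p = 0.0496). Its other probe set, at 10.33 in WT islets against 10.39 in KO, differed by only 0.06 ± 0.13 (SE). The calls of *Syvn1* and *Derl2* lay at the threshold, and both were lost when any 1 of the 9 arrays was left out. They were made in 3 and 2 of 19 alternative settings, respectively.

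The other degradation genes did not pass the test. The mannosidase-like proteins *Edem2* and *Edem1*, which mark misfolded glycoproteins, differed by 0.38 ± 0.13 and 0.24 ± 0.09 (limma adjusted p = 0.129 and 0.134), with overlapping groups. A second *Edem1* probe set of similar brightness gave the opposite sign (-0.25 ± 0.13). The lectin gene *Os9* differed by 0.29 ± 0.18, *Sel1l*, whose product holds HRD1 in its complex, by 0.09 ± 0.09, and *Herpud1*, a further component of that complex, by 0.03 ± 0.14. In this group 2 of 9 genes rose and 1 fell, with a median difference of 0.24.

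**Figure D3:**
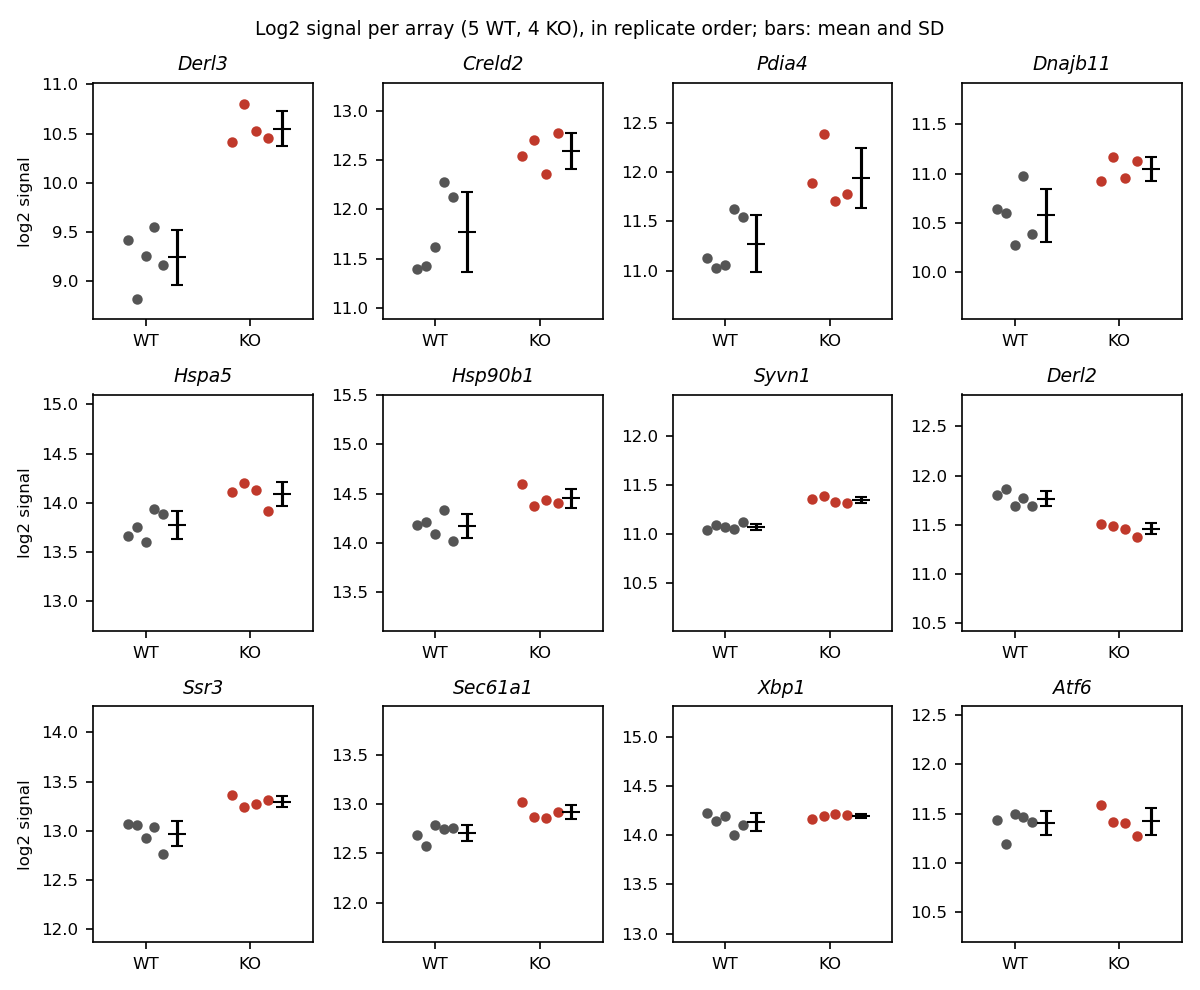
Log2 signal of 12 of the genes on each array in replicate order (grey, 5 WT; red, 4 KO) with the mean and SD beside the points. The vertical range is the same in all panels. The KO arrays of *Derl3* start at 10.41, above the highest WT array at 9.55, those of *Derl2* lie below WT, and those of *Xbp1* and *Atf6* overlap with WT.

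Among the chaperones and foldases the KO mean was higher in 16 of 19 genes, and 1 of these passed the test. *Creld2* encodes a disulfide isomerase-like protein that is known to be induced under ER stress. It read 11.39, 11.43, 11.62, 12.28 and 12.12 in WT islets, against 12.54, 12.70, 12.36 and 12.77 in KO islets. The groups did not overlap, but WT replicates 4 and 5 came close to KO replicate 3. The mean rose from 11.77 ± 0.41 (SD, n = 5) to 12.59 ± 0.18 (SD, n = 4), a difference of 0.83 ± 0.21 (SE), equal to 1.77-fold (limma adjusted p = 0.0493). Like those of *Syvn1* and *Derl2* this call lay at the threshold. It was made in 4 of 19 alternative settings and held without WT replicate 4 or WT replicate 5, whereas leaving out any other single array ended it.

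*Pdia4*, a disulfide isomerase, had the second largest difference of the chaperone group and missed the threshold. It read 11.13, 11.02, 11.06, 11.62 and 11.55 in WT islets, against 11.89, 12.39, 11.71 and 11.78 in KO islets. The groups did not overlap, and the difference was 0.67 ± 0.19 (SE), equal to 1.59-fold (limma adjusted p = 0.0715). A dim second *Pdia4* probe set differed by -0.57 ± 0.43, and the mean of both by 0.05. *Dnajb11*, which encodes the BiP cochaperone ERdj3, read 10.64, 10.60, 10.27, 10.98 and 10.39 in WT islets, against 10.92, 11.17, 10.96 and 11.13 in KO islets. Here WT replicate 4 lay within the KO range, and the difference was 0.47 ± 0.15 (limma adjusted p = 0.095). Without that array *Dnajb11* was called.

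*Hspa5* encodes BiP, the Hsp70 chaperone of the ER and its main buffer of unfolded protein. It read 13.67, 13.76, 13.60, 13.94 and 13.89 in WT islets, against 14.11, 14.20, 14.13 and 13.92 in KO islets. Only KO replicate 4 fell within the WT range, and the difference was 0.32 ± 0.10 or 1.25-fold (limma adjusted p = 0.104). A second *Hspa5* probe set of similar brightness gave 0.17 ± 0.14, a dimmer one -0.14 ± 0.15, and their mean 0.11. *Hsp90b1*, the ER form of Hsp90 (GRP94), read 14.19, 14.21, 14.09, 14.33 and 14.02 in WT islets, against 14.60, 14.38, 14.44 and 14.41 in KO islets. All KO arrays were above WT, by 0.29 ± 0.09 on average or 1.22-fold (limma adjusted p = 0.108). Signals this bright can be compressed on an array, which would make a log2 difference smaller, but this was not tested. A dimmer *Hsp90b1* probe set differed by 0.32 ± 0.37.

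Most of the remaining chaperones had small positive differences. *Manf*, a secreted BiP partner, differed by 0.50 ± 0.16, the ERdj3 partner *Sdf2l1* by 0.32 ± 0.15, and the isomerase *Pdia5* by 0.28 ± 0.11. The groups overlapped in all of these. In *Dnajb9* (ERdj4, a BiP cochaperone) and *P4hb* (protein disulfide isomerase) they did not overlap, at 0.22 ± 0.09 and 0.16 ± 0.07. *Pdia3*, the isomerase that works with the lectin chaperones, read 14.11, 14.13, 13.26, 14.18 and 13.75 in WT islets, against 14.06, 14.11, 14.03 and 13.87 in KO islets. WT replicate 3 alone set the direction of its difference of 0.13 ± 0.19, which was -0.03 without that array. *Erp44*, which retains oxidases in the early secretory pathway, read 12.33, 12.20, 12.17, 12.60 and 12.37 in WT islets, against 12.47, 12.55, 12.31 and 12.56 in KO islets, with a difference of 0.14 ± 0.11.

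The 3 chaperones with a lower KO mean were the lectins *Canx* (-0.17 ± 0.09) and *Calr* (-0.15 ± 0.09), which hold glycoproteins during folding, and the BiP cochaperone *Dnajc3* (-0.07 ± 0.11). None of them passed the test (limma adjusted p between 0.314 and 0.761). For *Dnajc3* the probe sets disagreed, since all the others had a higher KO mean. From brighter to dimmer they differed by 0.48 ± 0.16 (limma unadjusted p = 0.0171), 0.02 ± 0.14, 0.22 ± 0.12 and 0.35 ± 0.41. The median difference of the 19 genes was 0.22. At an unadjusted p under 0.05, 8 were higher and 0 lower.

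In the translocon and signal peptidase group limma called 0 of 8 genes in either direction, with 2 higher and 0 lower at an unadjusted p under 0.05. *Ssr3*, a subunit of the translocon-associated protein complex, read 13.07, 13.06, 12.92, 13.04 and 12.77 in WT islets, against 13.37, 13.24, 13.27 and 13.31 in KO islets. Every KO array lay above every WT array, with a difference of 0.33 ± 0.09 (limma adjusted p = 0.0682), and the second *Ssr3* probe set gave 0.25 ± 0.10. It was the 1 gene of the group called by the methods' t-test. *Sec61a1*, the channel itself, read 12.69, 12.58, 12.79, 12.75 and 12.75 in WT islets, against 13.02, 12.87, 12.86 and 12.92 in KO islets. These groups did not overlap either, and the difference was 0.21 ± 0.08 (limma adjusted p = 0.171).

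*Spcs3*, a subunit of the signal peptidase that cuts the signal peptide, was the only one of these 8 with a lower KO mean. It read 13.44, 13.38, 13.30, 13.48 and 13.36 in WT islets, against 13.23, 13.23, 13.23 and 13.32 in KO islets, a difference of -0.14 ± 0.07 (limma adjusted p = 0.313). KO replicate 4 was the array within the WT range. The other members, *Sec61b*, *Ssr1*, *Ssr2*, *Spcs1* and *Spcs2*, differed by 0.02 to 0.11 with overlapping groups. The median of the 8 differences was 0.09.

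The sensors showed no call, 0 of 4 by limma, 0 at an unadjusted p under 0.05 and 0 by the methods' t-test. *Eif2ak3* (PERK) read 11.12, 11.14, 10.96, 11.09 and 11.24 in WT islets, against 11.46, 11.11, 11.18 and 11.34 in KO islets. *Ern1* (IRE1) read 12.37, 12.45, 12.79, 12.45 and 12.65 in WT islets, against 12.64, 12.55, 12.65 and 12.91 in KO islets. Their differences of 0.16 ± 0.10 and 0.14 ± 0.12 (limma adjusted p = 0.394 and 0.533) were within the spread of the arrays. The dimmer *Ern1* probe sets, from brighter to dimmer, differed by -0.54 ± 0.26, -0.11 ± 0.42, -0.40 ± 0.17 (limma unadjusted p = 0.0465) and 0.04 ± 0.76. The probe sets of *Ern1* thus gave opposite signs.

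*Xbp1*, the transcription factor that IRE1 activates by splicing its RNA, read 14.22, 14.15, 14.20, 14.002 and 14.10 in WT islets, against 14.17, 14.19, 14.22 and 14.20 in KO islets. *Atf6* read 11.43, 11.19, 11.50, 11.47 and 11.42 in WT islets, against 11.59, 11.42, 11.40 and 11.27 in KO islets. The differences were 0.06 ± 0.08 and 0.02 ± 0.10 (limma adjusted p = 0.704 and 0.943), with overlapping groups in both. The median of the 4 genes was 0.10. These values are transcript levels and do not report splicing of *Xbp1*, cleavage of ATF6 or phosphorylation of the sensors.

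The arrays also differed in *Rptor* and in cell type markers, some of which run with genotype. *Rptor* itself read lower on every KO array than on any WT array, with a log2 difference of -0.72 ± 0.17 (limma adjusted p = 0.041). This call was made in 6 of 19 alternative settings. It ended without WT replicate 1, 2, 3 or 5 or KO replicate 1, 2 or 4, without the filter on dim genes and with the methods' t-test. It also ended with the replicate number as a block (limma adjusted p = 0.0866) and with the stromal marker mean as a covariate (-0.45, limma adjusted p = 0.589). With the mean of its probe sets *Rptor* differed by -0.16 (limma adjusted p = 0.888). The means of 10 lists of cell type markers were compared between the groups by exact two-sided permutation, with p-values also adjusted over the 10 lists. The mean of 18 acinar markers, which reads exocrine tissue carried over with the islets, ranged from 8.03 to 12.90 across the 9 arrays, and KO minus WT was -0.40 (exact p = 0.746, adjusted 0.8289). Beta cell markers were present on every array, with means from 12.71 to 13.65. KO minus WT was -0.64 and every KO array was below WT (exact p = 0.00794, the smallest these arrays allow, adjusted 0.0265). Of the 9 markers 5 were called lower by limma: *Slc2a2* (-1.33), *Nkx6-1* (-0.95), *Ucn3* (-0.85), *Slc30a8* (-0.79) and *Pdx1* (-0.62). The paper reports each of these called genes as lower in knockout islets. It also describes weaker protein staining for some of them within beta cells. The fall of the beta cell mean could thus be foreseen and is not a separate reading of beta cell content, which was not tested. The hormone genes *Ins2* and *Iapp* differed by -0.05 and -0.12 (limma adjusted p = 0.881 and 0.463). The stromal mean was higher by 1.15 (exact p = 0.0159, adjusted 0.0317), with 9 of its 18 markers called higher by limma, and lay between 8.07 and 9.06 in WT and between 9.35 and 9.92 in KO islets. The endothelial mean was higher by 0.31, the delta cell mean by 0.40 (both exact p = 0.00794, adjusted 0.0265) and the ductal mean by 0.92 (exact p = 0.0159, adjusted 0.0317). These means rest on few calls: limma called 0 of 15 endothelial and 0 of 3 ductal markers, the largest ductal difference was that of the dim *Krt19* (1.97, against 0.11 for *Krt7*), and the 2 delta cell markers disagreed (*Hhex* 0.84, called higher, and *Sst* -0.04). The differences of the Schwann and glial (0.74), alpha cell (0.25), macrophage (0.23) and B and plasma cell lists (0.37) did not pass (exact p = 0.0476, 0.0397, 0.143 and 0.889, adjusted 0.068, 0.0661, 0.179 and 0.889).

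The acinar mean overlapped between the groups, and for many of the chaperones the arrays with its extremes within a group were also the extremes of the gene. Among the 19 chaperones, WT replicate 4, which had the highest acinar mean in WT (12.69), was the highest WT array for 12 genes, and WT replicate 3, which had the lowest (8.78), was the lowest for 10. In KO islets replicate 2 (acinar mean 12.90) was highest for 9 and replicate 3 (8.03) was lowest for 8. The KO arrays between them did not keep the order. KO replicate 4 (9.96) was highest for 7, whereas KO replicate 1 (11.96) was highest for 3 and lowest for 5. The other role groups kept the order only in part. Among the 9 degradation genes WT replicate 4 was highest for 2 and lowest for 3, and WT replicate 3 was lowest for 0. In KO islets replicate 2 was highest for 3 of these and replicate 3 lowest for 4. Among the 8 translocon genes WT replicate 4 was highest for 4 and WT replicate 3 lowest for 5, but KO replicate 2 was highest for 0. Of the 4 sensors WT replicate 3 was highest for 2. Such counts were not made over all genes. In a model with genotype and the acinar mean, the slope was above 0 in 32 of the 40 genes, against 39.8% of all genes. The limma test of the slope called 0 of the 40, with 1 positive and 0 negative slopes at an unadjusted p under 0.05 (against 1.63% and 2.57% of all genes), and it called 23 of all genes (0.169%) as rising with the acinar mean. The 1 gene was *Pdia4*, at 0.12 ± 0.05 per log2 unit of the acinar mean. *Pdia3* (0.11 ± 0.05) and *Erp44* (0.06 ± 0.03) followed.

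With the acinar mean in the model the genotype differences changed little. *Derl3* differed by 1.33 ± 0.16 (limma adjusted p = 0.00571) and *Pdia4* by 0.71 ± 0.15 (limma adjusted p = 0.0367). These were the 2 of the 40 genes called higher in that model, in which 2.78% of all genes were called higher and 2.19% lower. *Creld2* (0.86 ± 0.20, limma adjusted p = 0.0557), *Syvn1* (0.27 ± 0.07, limma adjusted p = 0.0725) and *Derl2* (-0.30 ± 0.08, limma adjusted p = 0.0729) missed the threshold. *Pdia2*, a disulfide isomerase typical of the exocrine pancreas and not one of the 40, was the 1 further pathway gene called for the slope. It read 8.97, 7.99, 7.56, 10.11 and 8.51 in WT islets, against 9.27, 10.37, 6.76 and 7.76 in KO islets and rose by 0.68 ± 0.08 per unit of the acinar mean (limma adjusted p = 0.0206).

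**Figure D4:**
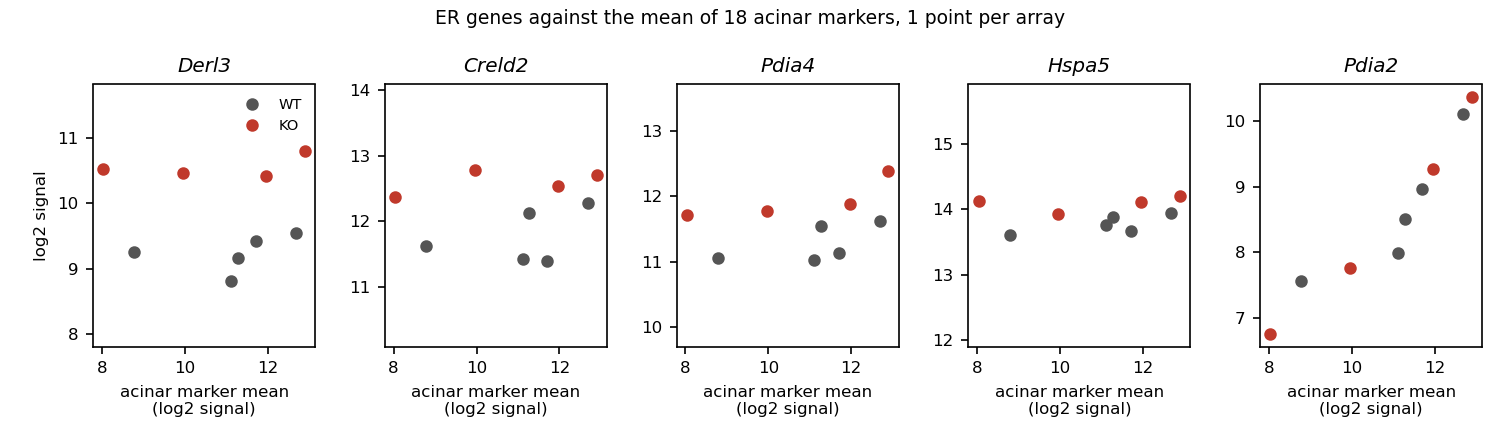
Log2 signal of 5 ER genes (vertical axis) against the mean of the 18 acinar markers (horizontal axis, log2 signal), 1 point per array, grey for the 5 WT and red for the 4 KO arrays. All panels span the same vertical range. *Pdia2* climbs with the acinar mean in both groups, whereas the KO points of *Derl3* lie above its WT points over the range from 8.03 to 12.90.

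The stromal markers moved with genotype, and a model with both separated them poorly. With the stromal mean in the model the median SE over all genes grew from 0.153 to 0.286 and limma called 5 genes in all and 0 of the 40. *Derl3* then differed by 1.31, *Creld2* by 0.28, *Syvn1* by 0.23, *Pdia4* by 0.40 and *Derl2* by -0.16 on the log2 scale. The part of stromal, endothelial or ductal cells in these differences was not tested. The mean of the markers of B and plasma cells, which also hold much of this machinery, was 8.73 in KO replicate 4 and between 6.17 and 6.62 on the other 8 arrays. Its markers were highest on that array except *Cd79a*, which read 7.47 there, within its WT range of 6.84 to 7.86. KO replicate 4 was the highest KO array for 13 of the 40 genes, a count like those of KO replicate 1 (14) and KO replicate 2 (12). Among the 13 were *Creld2* (12.77, against 12.36 to 12.70 on the other KO arrays) and *Pdia5* (10.92, against 10.69 to 10.84). *Derl3* was not among them (10.46, against 10.41 to 10.81). Without KO replicate 4 *Creld2* differed by 0.77 (limma adjusted p = 0.117). *Srprb*, a gene of the translocation list, read 10.68 there, against 10.11 to 10.35. The genes named beside KO replicate 4 were chosen with their values known, and the count of 13 was not compared with all genes. The part of these cells was not tested.

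Beyond the 40 genes, 92 of 98 further genes of these pathways were tested, and limma called 2 of them higher (2.17%, against 3.67% of all genes) and 0 lower. At an unadjusted p under 0.05, 19 were higher (20.7%, against 13.3%) and 5 lower (5.43%, against 8.43%). The methods' t-test called 4 of the 92 higher and 2 lower, against 362 (2.65%) and 355 of all 13644 genes. The 2 that rose both act on protein folding. *Prdx4*, a peroxiredoxin of the ER that uses peroxide to form disulfides, read 10.93, 10.81, 10.79, 11.07 and 11.09 in WT islets, against 11.63, 11.56, 11.46 and 11.63 in KO islets. The groups did not overlap, and the difference was 0.63 ± 0.10 or 1.55-fold (limma adjusted p = 0.00739), although the mean over all its probe sets gave -0.28.

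*Fkbp11*, a prolyl isomerase of secretory cells, read 10.03, 10.16, 9.88, 10.74 and 10.34 in WT islets, against 11.14, 11.27, 10.73 and 11.16 in KO islets. KO replicate 3 lay just below WT replicate 4, and the difference was 0.84 ± 0.19 or 1.79-fold (limma adjusted p = 0.034). The call was lost without WT replicate 1, 2 or 3 or KO replicate 1, 2 or 4, and was made in 7 of 19 alternative settings. The mean of the *Fkbp11* probe sets gave 0.58 (limma adjusted p = 0.504). Its slope on the acinar mean was 0.13 ± 0.04 (limma unadjusted p = 0.0154). Of the 32 further folding and redox genes 21 had a higher KO mean (65.6%, against 56.2% of all genes), with a median difference of 0.13. At an unadjusted p under 0.05, 12 were higher (37.5%, against 13.3%) and 4 lower. Every KO array lay above every WT array in 3 of them, *Prdx4*, *Fkbp14* (0.36 ± 0.10) and *Hspa13* (0.28 ± 0.09). That is 9.38%, against 7.43% of all genes. Every KO array lay below in another 3 (against 5.05% of all genes), and these did not pass the test. The oxidases that pass electrons from disulfide isomerases to oxygen, *Ero1b* and *Ero1a*, differed by -0.29 ± 0.08 and -0.30 ± 0.08 (limma adjusted p = 0.0629 and 0.0696), and the prolyl isomerase *Fkbp9* by -0.29 ± 0.09 (limma adjusted p = 0.102). These genes were picked after their values were seen, as those of the folding and redox list whose KO arrays all lay below WT.

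Of 18 further degradation genes and 25 of targeting, translocation and glycosylation limma called 0, with 2 and 4 higher and 0 lower at an unadjusted p under 0.05. The degradation gene with the lowest p was *Fam8a1*, a component of the HRD1 complex, at 0.32 ± 0.10 (limma adjusted p = 0.108). In the translocation list the KO mean was higher in 22 of 25 genes (88%, against 56.2% of all genes), and the median difference was 0.15. Its lowest p belonged to *Srprb*, the membrane subunit of the receptor for the signal recognition particle. *Srprb* read 9.88, 9.63, 10.04, 9.64 and 9.87 in WT islets, against 10.35, 10.11, 10.23 and 10.68 in KO islets, without overlap, and differed by 0.53 ± 0.14 (limma adjusted p = 0.0571).

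The list of further sensors and stress outputs had a median of 0.02, with a higher KO mean in 10 of its 17 genes. Of these 17 limma called 0, with 1 higher and 1 lower at an unadjusted p under 0.05. The higher one was *Ppp1r15a*, at 0.27 ± 0.11 (limma adjusted p = 0.183), and the lower one was *Trib3*. *Trib3*, a pseudokinase induced through ATF4 and CHOP, had the largest difference of the 92 further genes. It read 8.12, 8.05, 8.30, 8.65 and 9.11 in WT islets, against 7.81, 6.24, 7.51 and 7.54 in KO islets. All KO arrays lay below all WT arrays, but the KO arrays spread over more than 1 log2 unit, and the difference of -1.17 ± 0.34 or 2.25-fold did not pass (limma adjusted p = 0.0801). *Ddit3*, which encodes CHOP, and *Atf4*, also picked after their values were seen as the factors above *Trib3*, differed by -0.26 ± 0.14 and -0.23 ± 0.16 (limma adjusted p = 0.33 and 0.477).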

How the data were processed

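Islet RNA of WT (n = 5) and KO (n = 4) mice was hybridised to 9 Affymetrix Mouse Genome 430 2.0 arrays after biotin labelling, and each array was a separate pool of 5 animals. The authors deposited 1 log2 signal per probe set and array. Their methods name Genespring, and the summarisation of probes is not given in the sources used here. On the linear scale the trimmed mean of the signal was 497.1 to 497.7 on every array, so the arrays share a common scale, signals under 1 had been set to 1 (43 to 107 values per array at 0 on the log2 scale), the array medians were 6.85 to 7.05, and probe sets were not centred. Depth does not apply, and the number of arrays limits the precision. Of 45037 probe sets, 34945 had 1 gene, 932 several and 9160 none in the platform annotation. The probe set with the highest mean represented each gene, and the lowest 0.25 of the 18193 genes by that mean was left out. Symbols of all 40 genes equalled the RefSeq ones.

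Groups and replicate numbers came from the sample titles. limma 3.58.1 under R 4.3.3 gave the KO against WT test (lmFit, eBayes, two-sided, Benjamini-Hochberg over 13644 genes, threshold 0.05), and p-values measure the spread between pools. SEs of further probe sets come from a fit over all 34945. Marker means were compared by exact permutation. Alternatives covered the filter, centring, quantile normalization, averaging of probe sets, the methods' t-test, trend and robust variance, the replicate block, marker covariates and each array left out. Values were described per array for called genes, the 3 lowest p of each role, the sensors, *Hspa5*, *Hsp90b1*, the 3 lowest p of the acinar slope, and for other pathway genes those called or the lowest p of a list. The genes and lists were chosen with earlier results of these data known. Of the 98 further pathway genes 4 had no single-gene probe set and 2 were filtered out. No detection calls or scan dates entered. Scripts were tested on simulated data. Promoters were searched as exact letters. There, 4 of the 33 genes had more than 1 promoter.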

Additional observations from a re-analysis of the deposited data

Results flagged for a closer look

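In 80 groups of values of the 40 genes and 20 groups of marker means, the gap between an extreme array and its nearest neighbour was compared with the range of the group (Dixon's test). Chance picks out about 1 group in 20. Among the gene values 4 arrays stood apart. WT replicate 4 read 13.59 for *Dnajb9*, against 13.80 to 13.83 on the other WT arrays, and 13.89 for *Calr*, against 14.13 to 14.19. WT replicate 2 read 11.19 for *Atf6*, against 11.42 to 11.50. KO replicate 4 read 13.32 for *Spcs3*, against 13.23 on the other KO arrays. Among the marker means, that of B and plasma cells was 8.73 on KO replicate 4, against 6.17 to 6.38 on the other KO arrays.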

How the results depend on the processing

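The small number of arrays and calls near the threshold limit these results. *Derl3* was called in 17 of 19 alternatives, *Creld2* in 4, *Syvn1* in 3 and *Derl2* in 2. Over all genes 860 were called, with 452 when no filter was used, 474 with median centring, 317 with the mean of probe sets, 5 with the stromal covariate, 1273 with trend and robust variance, 273 without the array of highest acinar mean in each group and 339 with every probe set on its own (the last 2 chosen after seeing the data), and 372 to 800 with 1 array left out. Of the 40 genes, 1 was called higher with no filter, median centring, the mean of probe sets and without the arrays of highest acinar mean, 0 with the stromal covariate, 9 with trend and robust variance and 1 to 3 with 1 array left out. The genes called lower fell from 1 to 0 under these settings except trend and robust variance, and also with quantile normalization, the acinar covariate and any 1 array left out. The further pathway genes called higher numbered 1 with no filter, centring or the mean of probe sets, 4 with the methods' t-test, 10 with trend and robust variance, 0 with the stromal covariate and 1 to 3 with 1 array left out, and those called lower 1 with quantile normalization, 2 with the methods' t-test and 4 with trend and robust variance.

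The median of the degradation genes was 0.13 with the mean of probe sets, -0.043 with the stromal covariate, 0.18 without the arrays of highest acinar mean and 0.18 to 0.28 with 1 array left out, and that of the sensors -0.045 with the mean of probe sets and -0.063 with the stromal covariate. Signs turned for *Atf6* (-0.022 with centring, -0.17 with the stromal covariate, -0.034 without WT replicate 2, -0.039 without KO replicate 1, and up to 0.069 without KO replicate 4), *Eif2ak3* (-0.13), *Ern1* (-0.17) and *Prdx4* (-0.28) with the mean of probe sets, *Ern1* with the stromal covariate (-0.21) and *Pdia3* without WT replicate 3 (-0.026, and up to 0.20 without WT replicate 4). None of these under-threshold signs was called, except that of *Prdx4* in the reported fit. The cause was not tested.

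The replicate numbers did not pair the arrays, since deviations of same-numbered arrays correlated at -0.04, 0.09, 0.12 and -0.03. With the replicate number as a block 61 genes were called, 0 of the 40 higher (9 at an unadjusted p under 0.05) and 0 lower, and 0 further pathway genes (*Derl3* 1.29, limma adjusted p = 0.0667).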
